A study of Homo sapiens with 12 samples.

Results

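The dual-specificity phosphatases described here are 9 genes, DUSP1, DUSP2, DUSP3, DUSP4, DUSP5, DUSP6, DUSP8, DUSP10 and DUSP16, found by symbol among the 58735 rows of a table of RNA-sequencing counts, with 1 row each. All 9 were among the 25873 genes tested, those with at least 10 counts in total. THP1, an established human monocytic leukemia cell line used in wild-type form, was grown for 24 h alone (mono-culture) or in a transwell above human umbilical vein endothelial cells (ECs), the 2 cell types being kept apart by a membrane with small pores. The ECs had been treated with vehicle (control ECs), with 10 µM etoposide, a DNA-damaging topoisomerase inhibitor, to make them senescent (senECs), or with etoposide and then 100 µM epigallocatechin gallate, a green tea catechin (EGCG-treated senECs). After the 24 h, THP1 cells of all 4 groups, mono-culture included, received LPS at 100 ng/ml over 2 h, so that no group shows the phosphatases without LPS. Each group held 3 libraries, numbered 1, 2 and 3 in mono-culture and control ECs and 1, 2 and 5 in senECs and EGCG-treated senECs. The model is limited to a single leukemic line and to senescence induced by a drug.

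Dual-specificity phosphatases remove phosphate from both the tyrosine and the threonine of the activation loop of MAP kinases (ERK, JNK and p38), which inactivates the kinase. LPS activates these kinases through TLR4 within minutes, and several of the phosphatases are themselves transcribed in response, so that they form a negative feedback on the inflammatory response of monocytes and macrophages. DUSP1, DUSP2, DUSP4 and DUSP5 encode the inducible phosphatases of the nucleus, DUSP6 a cytoplasmic phosphatase that prefers ERK, and DUSP8, DUSP10 and DUSP16 phosphatases that prefer JNK and p38. DUSP3 (also called VHR) is a small phosphatase without the kinase-binding domain of the other members and is counted among the atypical ones.

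The libraries held from 15439836 to 22092600 counts and levels are given as CPM, counts scaled to the library size. In the library where this limit is highest, a count of 0 allows up to 0.191 CPM, counting error alone being considered. The members had from 68 to 2155 counts per library. The counts of the 12 replicate pairs within groups differed by more than the sampling noise (the chi-square statistic divided by its degrees of freedom lay between 9.23 and 33.7), and each library was kept as a separate sample. Nothing in the labels says that the replicates came from separate cultures, so that p-values measure the spread between these libraries. EdgeR estimates this spread for each gene with information from all genes. Of 10 monocyte markers 9 were above 1 CPM in at least 1 library, with a summed level from 827 to 1360 CPM. Of 14 endothelial markers 10 were under 1 CPM in all 12 libraries, MMRN1 had no count, and their summed level ran from 21.8 to 34.8 CPM.

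Per length of exon, the highest of the members was DUSP3 and the lowest was DUSP4. The length joins the exons of all transcripts of a gene, 7257 bases for DUSP4 and 2615 for DUSP5. On the scale of FPKM (CPM per kilobase of exon), DUSP3 had a mean of 18.2 over the 12 libraries (range 12.8 to 21.7) and DUSP6 a mean of 11.8 (range 6.56 to 18.6). DUSP3 was above DUSP6 in 11 of the 12 libraries, the exception being mono-culture replicate 3. The means of DUSP2, DUSP1, DUSP10 and DUSP16 followed at 6.63, 5.77, 4.92 and 4.20 FPKM. These 4 were not in a fixed order, since DUSP2 was above DUSP1 in 8, DUSP1 above DUSP10 in 7 and DUSP10 above DUSP16 in 9 of the 12 libraries. DUSP16 was above DUSP8 (2.98 FPKM) in 12 of 12 libraries and DUSP8 above DUSP5 (1.71 FPKM) in 12 of 12. DUSP5 and DUSP4 (1.33 FPKM) were close, with DUSP5 higher in 9 of the 12 libraries. The ranges of each neighbouring pair overlapped.

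Promoter sequences are shown for DUSP3, the member that differed between co-culture and mono-culture, and for DUSP1 and DUSP8, the members whose promoter held a full cAMP response element (CRE), the binding motif of CREB and ATF factors. RefSeq promoter entries (GRCh38.p14) were matched for 7 of the 9 members, that of DUSP4 was not searched, and none was matched for DUSP5. The 250 bases before the RefSeq start lie at chr17:43778978-43779227 for DUSP3, at chr5:172771196-172771445 for DUSP1 and at chr11:1572272-1572521 for DUSP8, all on the minus strand. Each is printed 5′ to 3′ on the strand of the gene, and capitals mark motifs read on either strand.
DUSP3: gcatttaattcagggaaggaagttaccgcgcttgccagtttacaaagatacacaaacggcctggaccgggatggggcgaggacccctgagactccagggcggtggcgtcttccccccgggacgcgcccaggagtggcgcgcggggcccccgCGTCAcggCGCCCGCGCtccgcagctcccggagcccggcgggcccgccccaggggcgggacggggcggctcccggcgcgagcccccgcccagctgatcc
DUSP1: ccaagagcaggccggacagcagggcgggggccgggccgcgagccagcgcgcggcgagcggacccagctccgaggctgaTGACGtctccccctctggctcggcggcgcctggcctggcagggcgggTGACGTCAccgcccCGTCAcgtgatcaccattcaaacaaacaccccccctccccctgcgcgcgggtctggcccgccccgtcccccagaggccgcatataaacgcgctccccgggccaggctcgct
DUSP8: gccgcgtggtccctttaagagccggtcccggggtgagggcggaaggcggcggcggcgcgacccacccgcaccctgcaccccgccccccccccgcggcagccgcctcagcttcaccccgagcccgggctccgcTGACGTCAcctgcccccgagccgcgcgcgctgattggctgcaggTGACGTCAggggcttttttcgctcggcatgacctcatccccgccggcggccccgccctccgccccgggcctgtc
The motifs searched on both strands were TGACGTCA (CRE), TGACG (its 5-base part, which also lies within each full CRE), TGANTCA (AP-1), GCGNGGGCG (EGR) and, by name, the NF-κB and CArG (serum response factor) motifs. A full CRE was present in DUSP1, where it began 125 bases before the start, and in DUSP8, which held 1 at 118 and 1 at 74 bases before the start, and it was found in 1.65% of the 35116 RefSeq promoter windows of this length that were searched. The EGR motif was present in DUSP2, DUSP3 and DUSP16 (8.41% of windows) and TGACG in DUSP1, DUSP3 and DUSP8 (21.2% of windows). The windows of DUSP6 and DUSP10 held none of the 6, and no member's window held AP-1 (6.57%), NF-κB (9.96%) or CArG (1.16%). For DUSP6, DUSP8 and DUSP16 the RefSeq start opened no GENCODE 29 transcript, so that distances there refer to the RefSeq start alone. The DUSP8 window lies outside the GENCODE gene (chr11:1554044-1571920) and the DUSP6 window inside its gene. These matches describe the letters in the windows only.

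The first question was whether co-culture with ECs changed the phosphatases in LPS-stimulated THP1 cells. DUSP3 was higher in each co-culture than in mono-culture, by about 1.5-fold, and the other 8 members did not pass edgeR's test with the group as the only term in any comparison of groups. DUSP3 (chr17:43766121-43778988, minus strand, GRCh38 in GENCODE 29) measured 64.1, 69.2 and 64.3 CPM in mono-culture replicates 1, 2 and 3. With control ECs it measured 100.7, 94.7 and 99.2 CPM in replicates 1, 2 and 3. With senECs it measured 98.1, 93.8 and 100.8 CPM and with EGCG-treated senECs 96.4, 104.9 and 108.5 CPM in replicates 1, 2 and 5. The 9 co-culture libraries thus lay above the 3 mono-culture libraries without overlap, while the co-culture groups overlapped with each other. In bulk RNA, more cells with the transcript and more RNA per cell cannot be told apart.

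**Figure D1:**
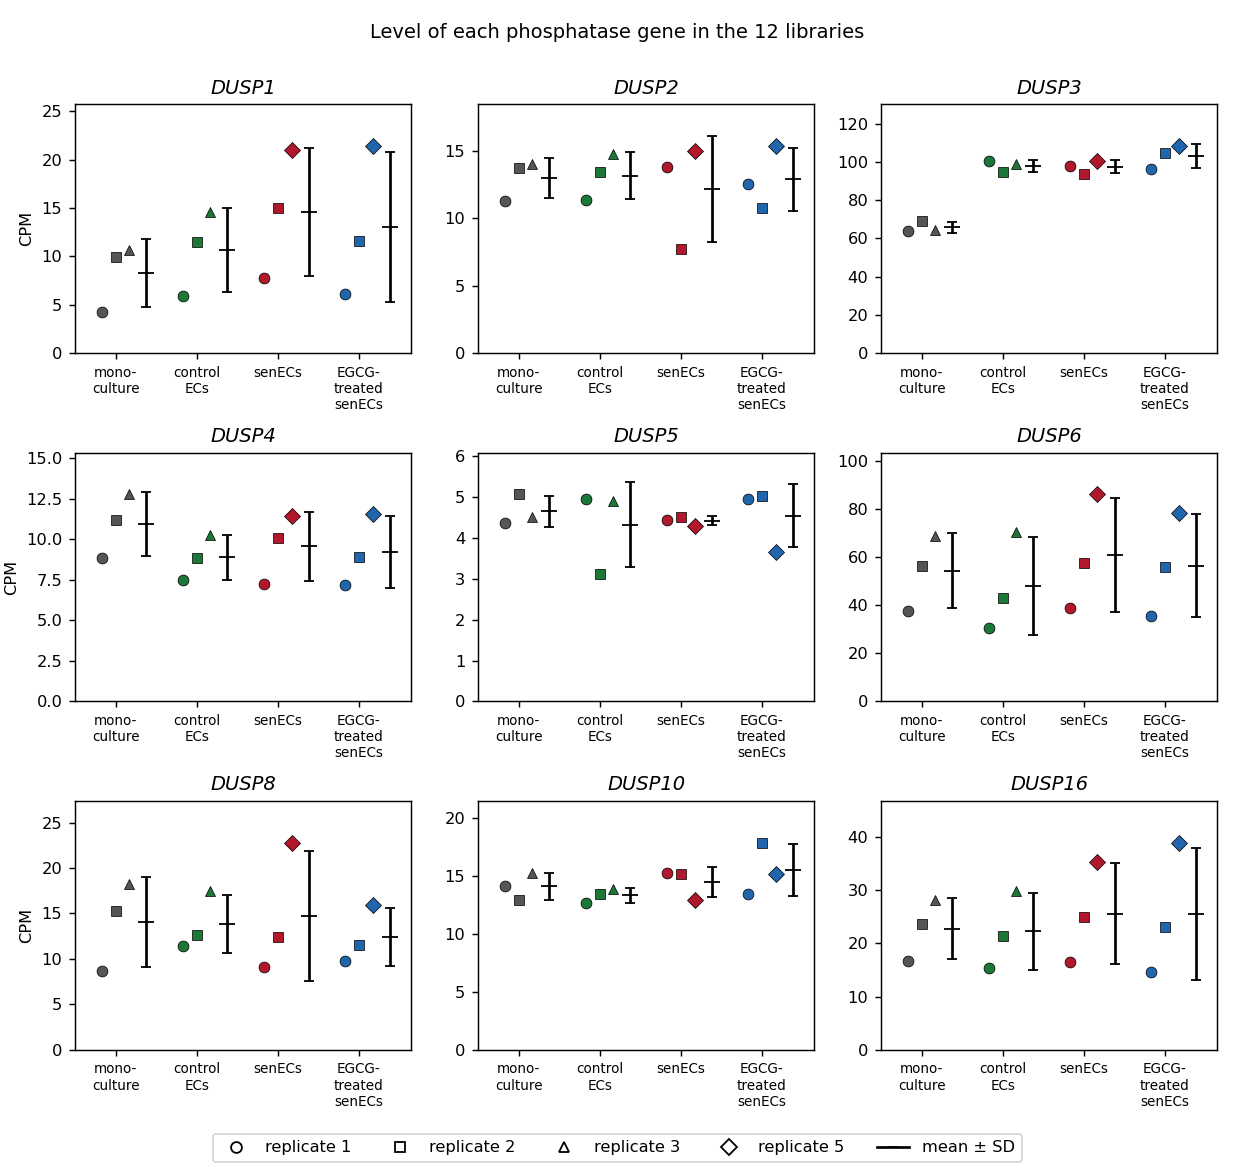
Level of each phosphatase gene in CPM (vertical axes, starting at 0) in the 4 groups, with 1 point per library, shaped by replicate number, and the mean ± SD of the 3 libraries beside them. DUSP3 separates mono-culture (64.1 to 69.2 CPM) from the co-cultures (93.8 to 108.5 CPM), whereas DUSP1, DUSP4, DUSP6, DUSP8 and DUSP16 differ most between replicate numbers.

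Mono-culture had a mean of 65.9 ± 2.88 CPM of DUSP3, control ECs 98.2 ± 3.13, senECs 97.6 ± 3.52 and EGCG-treated senECs 103 ± 6.24 CPM (SD, n = 3 libraries each). The log2 fold change against mono-culture was 0.58 (SE 0.09, edgeR adjusted p = 0.00881) with control ECs, 0.57 (SE 0.09, adjusted p = 0.00775) with senECs and 0.65 (SE 0.09, adjusted p = 0.00376) with EGCG-treated senECs. These comparisons share the mono-culture libraries. DUSP3 was the 1 of 9 members called in each, beside 0.143%, 0.309% and 0.213% of all genes. The mean of the 3 co-cultures was above mono-culture by 0.60 (SE 0.08, edgeR adjusted p = 0.000630), with 0.723% of all genes called, and 1.77% of all genes had 9 co-culture libraries above the 3 of mono-culture. Within the libraries of number 1, DUSP3 was 64.1 CPM in mono-culture and from 96.4 to 100.7 in the co-cultures, and within those of number 2 it was 69.2 and from 93.8 to 104.9 CPM. The call was lost without mono-culture replicate 3 for control ECs (adjusted p = 0.0675) and senECs (0.0660), and without control ECs replicate 1 for control ECs (0.053), with log2 fold changes of 0.56, 0.54 and 0.56. It was also lost for senECs with only the 6 libraries compared in the fit (0.57, adjusted p = 0.0570).

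The spread of DUSP3 between replicates was small. Its SD of log2 CPM within groups was 0.064, at the 2.36th percentile of the 10832 genes with a mean of at least 5 CPM, whose median was 0.159. These genes were not matched for level, and DUSP3 had a mean of 91.2 CPM over the 12 libraries. The genes closest to DUSP3 in pattern over the 12 libraries were LAP3, POU2F2 and FAM129A, with Pearson r of log2 CPM of 0.96, 0.952 and 0.943. Of the 10 monocyte markers, 7 had a log2 fold change above 0 in co-culture and 3 below 0. EdgeR called 2, both higher, beside 0.723% of all genes. These were the LPS co-receptor CD14 and the Fc receptor FCGR1A, with log2 fold changes of 1.59 (SE 0.37, adjusted p = 0.0492) and 0.55 (SE 0.12, adjusted p = 0.0348). CD14 measured from 5.91 to 11.0 CPM in mono-culture and from 12.4 to 65.7 CPM in co-culture. The summed level of the 10 monocyte markers overlapped between groups, mono-culture having 827 to 1042 CPM, control ECs 828 to 1025, senECs 903 to 1360 and EGCG-treated senECs 923 to 1136 CPM. The part of these genes in the difference of DUSP3 was not tested.

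**Figure D2:**
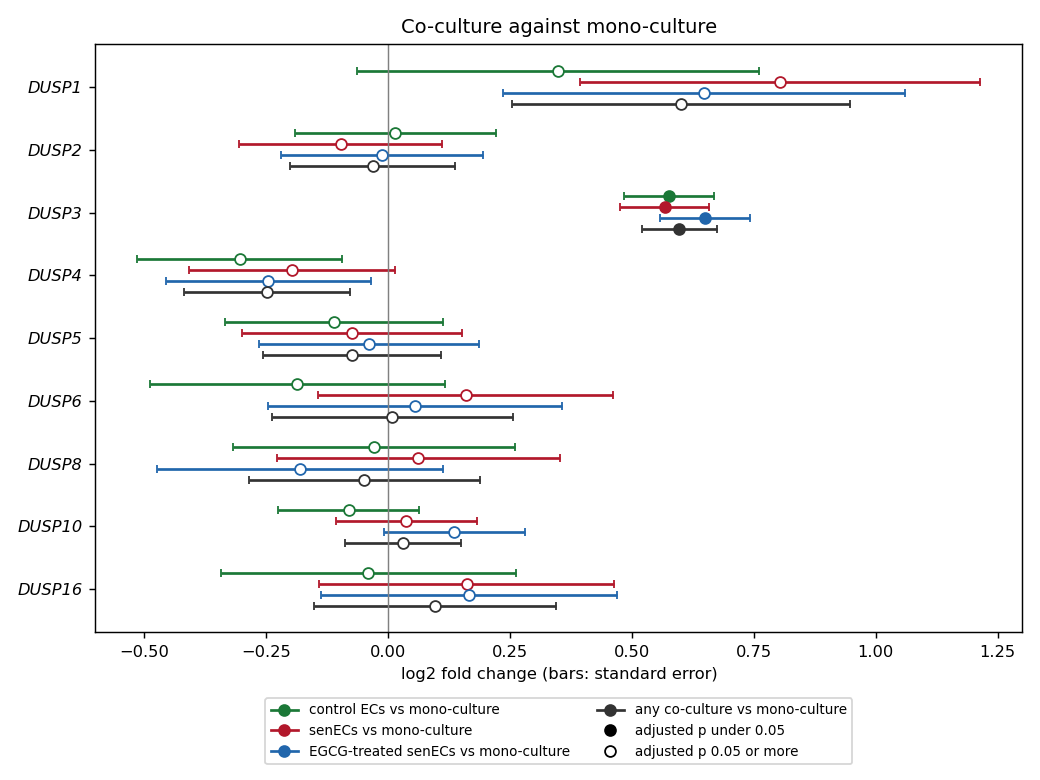
Log2 fold change against mono-culture (horizontal axis, bars are the standard error of edgeR's fit) for each phosphatase with each kind of EC and with the mean of the 3 co-cultures; filled points have an adjusted p under 0.05. The DUSP3 points, from 0.57 to 0.65, are filled, and the DUSP1 points, from 0.35 to 0.80 with errors of 0.35 to 0.41, are open.

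Among the inducible nuclear phosphatases, DUSP1 (chr5:172768090-172771195, minus strand) is an early feedback inhibitor of p38 and JNK after LPS. It had a fold change in co-culture close to that of DUSP3 but a larger spread. With the group as the only term it did not pass the test. With the replicate number as a further term, DUSP1 was called in some comparisons, as given at the end. It measured 4.29, 9.96 and 10.7 CPM in mono-culture replicates 1, 2 and 3, and 5.95, 11.5 and 14.6 CPM with control ECs. With senECs it measured 7.79, 15.04 and 21.0 CPM and with EGCG-treated senECs 6.09, 11.6 and 21.4 CPM in replicates 1, 2 and 5. The groups overlapped. Within number 1 and within number 2 mono-culture was the lowest of the 4 libraries, and no mono-culture library was numbered 5. How many of all genes show this order was not counted, and the numbers were not taken to pair the libraries. The log2 fold changes against mono-culture were 0.35 (SE 0.41) with control ECs, 0.80 (SE 0.41) with senECs, 0.65 (SE 0.41) with EGCG-treated senECs and 0.60 (SE 0.35) for their mean, with adjusted p from edgeR of 0.969, 0.489, 0.692 and 0.566. When all genes that had a count entered the fit, DUSP1 was called for senECs (0.81, adjusted p = 0.00152), EGCG-treated senECs (0.65, adjusted p = 0.0411) and their mean with control ECs (0.61, adjusted p = 0.00862).

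DUSP2, an inducible phosphatase of activated leukocytes, was at 13.0 ± 1.48 CPM in mono-culture and 12.7 ± 2.48 CPM over the 9 co-culture libraries (SD). Its lowest value was 7.69 CPM in senECs replicate 2, while the other 11 libraries ran from 10.7 to 15.4 CPM. DUSP4, an inducible nuclear phosphatase, was at 10.9 ± 1.99 CPM in mono-culture (SD, n = 3) and 9.22 ± 1.72 CPM in co-culture (SD, n = 9). DUSP5, which acts on ERK in the nucleus, was the least counted member, at 4.64 ± 0.371 and 4.42 ± 0.656 CPM. The log2 fold changes of co-culture against mono-culture were -0.03 (SE 0.17), -0.25 (SE 0.17) and -0.07 (SE 0.18) for these 3 genes, with edgeR adjusted p of 0.976, 0.640 and 0.936.

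Of the cytoplasmic and JNK- or p38-directed members, DUSP6 had 54.3 ± 15.7 CPM in mono-culture and 55.0 ± 19.8 CPM in co-culture, and DUSP16 had 22.8 ± 5.74 and 24.4 ± 8.74 CPM (SD, n = 3 and 9). DUSP8 had 14.1 ± 4.93 and 13.7 ± 4.34 CPM and DUSP10 had 14.1 ± 1.14 and 14.4 ± 1.63 CPM. Their log2 fold changes were 0.01 (SE 0.25) for DUSP6, 0.10 (SE 0.25) for DUSP16, -0.05 (SE 0.24) for DUSP8 and 0.03 (SE 0.12) for DUSP10. The edgeR adjusted p of these 4 ran from 0.940 to 1, and the mono-culture and co-culture libraries of each overlapped. The median log2 fold change of the 9 members was 0.0092, beside -0.017 for all genes.

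The second question was whether the kind of EC mattered, that is, senECs against control ECs and EGCG-treated against untreated senECs. With the group as the only term, none of the 9 members passed edgeR's test in these comparisons. In this fit 0 of 9 had an unadjusted p under 0.05, and DESeq2 also called 0. Of all genes 0% were called by edgeR, with 1709 of 25873 genes at an unadjusted p under 0.05 for senECs against control ECs, 575 for EGCG-treated against untreated senECs and 1177 for the EGCG-treated senECs compared with control ECs, and DESeq2 called 0 genes in each. DUSP1 had the largest of the members' log2 differences between senECs and control ECs, 0.45 (95% interval -0.34 to 1.25, adjusted p = 0.822), and DUSP6 the next, 0.35 (interval -0.25 to 0.94, adjusted p = 0.821). Control ECs hold number 3 where senECs hold number 5, so that group and number cannot be fully told apart here. With a library left out, these differences ran from 0.10 to 0.76 and from 0.01 to 0.73, both lowest without senECs replicate 5. With the number as a further term and 3 and 5 joined, DUSP6 was called, as given at the end. Between EGCG-treated and untreated senECs the difference was -0.16 for DUSP1 (interval -0.94 to 0.63) and -0.10 for DUSP6 (interval -0.70 to 0.49). DUSP3 was bounded more closely, at -0.01 (interval -0.19 to 0.17) for senECs against control ECs and 0.08 (interval -0.10 to 0.26) for EGCG-treated against untreated senECs.

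The libraries of all 4 groups differed by replicate number in a subset of the members. The labels do not say what a number marks, and numbers 3 and 5 are never present in the same group. Over all members, 5 of 9 (DUSP1, DUSP4, DUSP6, DUSP8 and DUSP16) differed between numbers in edgeR's test with the group as a term, beside 9.61% of all genes. The call of DUSP4 was lost without replicate 1 of mono-culture, of senECs or of EGCG-treated senECs. DUSP6 (chr12:89347232-89353271, minus strand), which dephosphorylates ERK in the cytoplasm, measured 37.7, 30.4, 38.9 and 35.4 CPM in the libraries of number 1 from mono-culture, control ECs, senECs and EGCG-treated senECs. In the same order of groups it measured 56.4, 43.0, 57.4 and 55.7 CPM in number 2, and 68.9, 70.2, 86.1 and 78.3 CPM in number 3 or 5. The 4 libraries of number 3 or 5 were above those of numbers 1 and 2 without overlap, in mono-culture as in co-culture. Of all genes, 6.34% had number 3 or 5 above number 1 without overlap, and 4.17% had number 2 above number 1.

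DUSP16 (chr12:12474210-12562383, minus strand), a phosphatase directed at JNK and p38, was likewise lowest in number 1. It measured 16.7, 15.4, 16.5 and 14.6 CPM in number 1, and 23.6, 21.4, 24.9 and 23.1 CPM in number 2, in the same order of groups. In number 3 or 5 it measured 28.0, 29.9, 35.3 and 38.9 CPM, so that the 3 sets of 4 libraries did not overlap. Against number 1, this stands beside the same 6.34% and 4.17% of all genes. DUSP8 (chr11:1554044-1571920, minus strand), another JNK and p38 phosphatase, ran from 8.64 to 11.4 CPM in number 1, from 11.5 to 15.2 in number 2 and from 15.9 to 22.8 in number 3 or 5. DUSP4 ran from 7.19 to 8.83, from 8.87 to 11.2 and from 10.3 to 12.8 CPM. For DUSP1, whose values are given above, number 1 lay below the others in every group.

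Number 3 or 5 was higher than number 1 by a log2 fold change of 1.46 for DUSP1 (SE 0.14), 1.09 for DUSP6 (SE 0.09), 1.06 for DUSP16 (SE 0.11), 0.92 for DUSP8 (SE 0.13) and 0.58 for DUSP4 (SE 0.14). The adjusted p from edgeR was 9.53e-23, 1.81e-30, 5.28e-20, 4.26e-11 and 0.00092 in this order. These 5 of 9 members called stand beside 10.9% of all genes, 6.32% called higher and 4.59% lower. Each of the 5 was higher in 4 of 4 groups, as was DUSP2 (log2 fold change 0.26, adjusted p = 0.209), beside 13.1% of all genes. DUSP1 differed by 1.30 in mono-culture, by 1.28 with control ECs, by 1.42 with senECs and by 1.80 when the senECs had received EGCG. Each of these values sets 1 library against 1. DUSP3, DUSP10 and DUSP5 had log2 fold changes of 0.05, 0.04 and -0.12, with adjusted p of 0.825, 0.903 and 0.818. Without senECs replicate 1, DUSP2 was called as well (0.45, adjusted p = 0.0323).

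**Figure D3:**
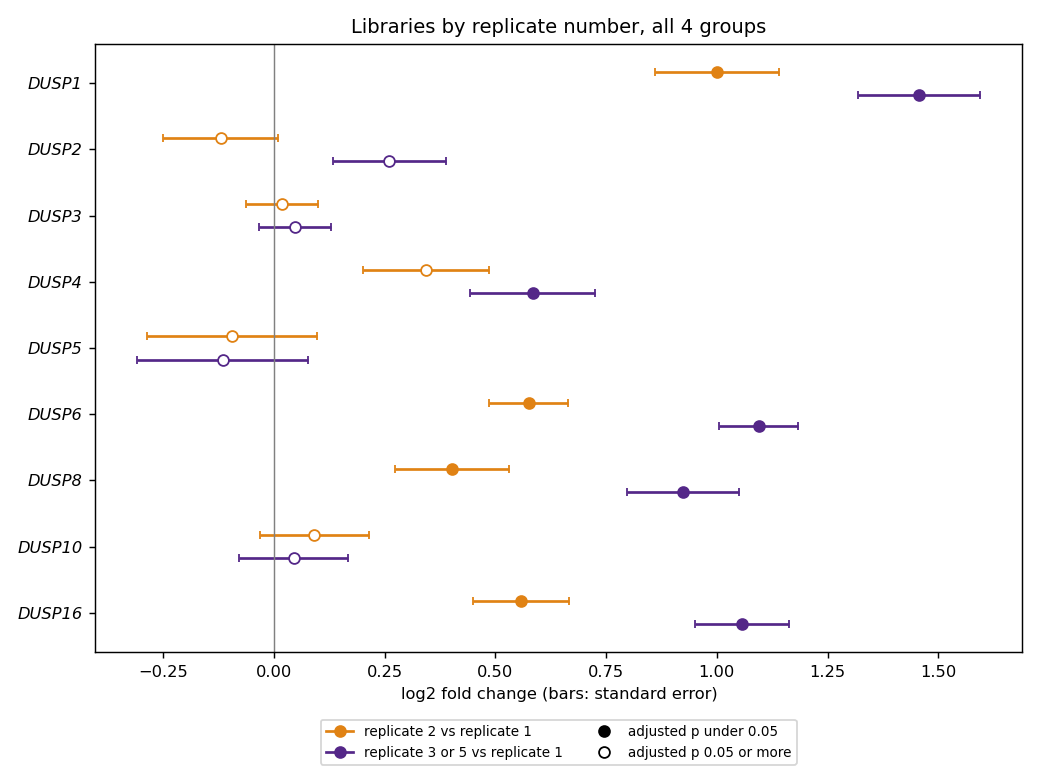
Log2 fold change of libraries numbered 2, and of those numbered 3 or 5, against those numbered 1 (horizontal axis, bars are standard errors) for each phosphatase, with the group as a term in edgeR's fit; filled points have an adjusted p under 0.05. DUSP1, DUSP6, DUSP16, DUSP8 and DUSP4 lie between 0.58 and 1.46 for number 3 or 5, and DUSP3, DUSP10 and DUSP5 lie near 0.

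Number 2 was higher than number 1 by 1.00 for DUSP1 (SE 0.14, edgeR adjusted p = 4.34e-10), 0.58 for DUSP6 (SE 0.09, adjusted p = 3.48e-08), 0.56 for DUSP16 (SE 0.11, adjusted p = 2.9e-05) and 0.40 for DUSP8 (SE 0.13, adjusted p = 0.039). These 4 of 9 compare with 4.88% of all genes. Over the 6 alternatives, DESeq2 among them, the adjusted p rose to at most 0.000133 for DUSP1 and 0.000198 for DUSP6. DUSP4 had 0.34 (adjusted p = 0.183) and was also higher in 4 of 4 groups, as were 11.2% of all genes. The call of DUSP8 was kept in 1 of 6 alternatives, that with the size factors of DESeq2. It was lost in DESeq2 (adjusted p = 0.0906), with all genes that had a count (0.0517), with at least 10 counts in every library (0.0780), with edgeR's own filter (0.0831) and with numbers 3 and 5 joined as 1 (0.0526). It was also lost without any 1 of mono-culture replicates 1, 2 and 3, senECs replicates 1 and 2 or EGCG-treated senECs replicate 2, with log2 fold changes of 0.28, 0.31, 0.40, 0.34, 0.44 and 0.40.

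The same 5 members followed each other from library to library. With the group means subtracted, the 10 pairs among DUSP1, DUSP4, DUSP6, DUSP8 and DUSP16 had Pearson r of log2 CPM from 0.891 to 0.982 over the 12 libraries, and the other 26 pairs from -0.316 to 0.499. These are descriptions, since the points share libraries and replicate numbers. The 5 were also picked by the test of numbers in these libraries, so that a high r among them follows from that choice. The SD of DUSP1 within groups, 0.756 on the log2 scale, was at the 99.5th percentile of genes with a mean of at least 5 CPM, and it was 0.128 once the number was a term in the fit. For DUSP6 the SD went from 0.552 to 0.105 and for DUSP16 from 0.540 to 0.103, while for DUSP3 it was 0.064 and 0.065. The genes closest to DUSP6 with group means subtracted were RIPK2, TNFAIP6 and PNRC1 (r = 0.995, 0.993 and 0.993), and among those closest to DUSP1 were KYNU and MARCKS (0.989 and 0.985). For DUSP16 they were TNIP3, VEGFA and PSTPIP2 (0.995, 0.99 and 0.99), for DUSP4 SAP30BP, VEGFA and CYBB (0.99, 0.989 and 0.987) and for DUSP8 GLIPR2, CFP and PHLDA1 (0.984, 0.983 and 0.983). Outside these 5, the closest genes were CAAP1, ZNF468 and MYEF2 for DUSP2 (0.932, 0.919 and 0.905) and COG1, ZNF792 and TRABD2A for DUSP10 (0.946, 0.908 and 0.888).

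**Figure D4:**
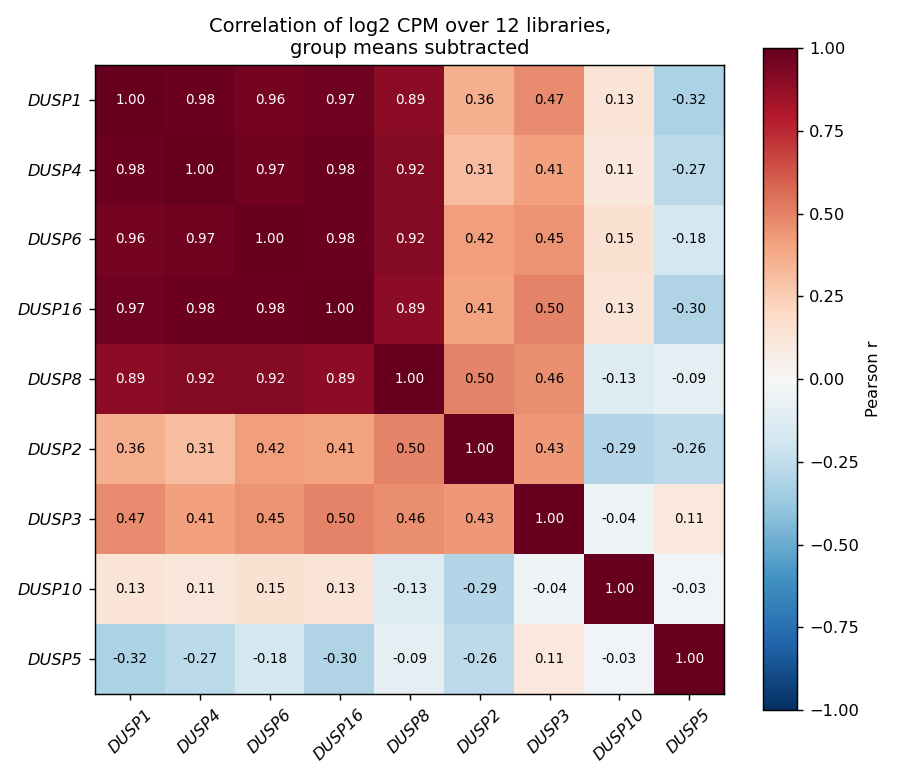
Pearson r of log2 CPM between the phosphatases over the 12 libraries after the mean of each group was subtracted (colour and printed value). DUSP1, DUSP4, DUSP6, DUSP16 and DUSP8, picked by the test of numbers in these libraries, have r from 0.891 to 0.982. The pairs with DUSP2, DUSP3, DUSP10 or DUSP5 stay at or below 0.499.

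The other genes of the pathway were read from lists of MAP kinases, their activators and their targets. Of all genes, edgeR called 0.723% in co-culture against mono-culture. In co-culture against mono-culture, edgeR called 0 of 15 immediate early genes, the transcription factors and regulators induced first after a stimulus (3 at an unadjusted p under 0.05, and DESeq2 called FOSL1 and JUNB). It called 0 of 10 MAP kinases, with 0 at an unadjusted p under 0.05 and 0 by DESeq2, and 0 of 7 MAP kinase kinases, with 3 and 0. Of 10 MAPK-activated kinases MAPKAPK3, a target of p38, was called higher (0.38, SE 0.09, adjusted p = 0.0483). Of 10 other feedback inhibitors of LPS signalling BCL3, a nuclear IκB protein, was called higher (0.83, SE 0.11, adjusted p = 0.000964), and it was also called in the separate comparisons of senECs and EGCG-treated senECs with mono-culture. The classical phosphatases DUSP7 and DUSP9, which act on ERK, had log2 fold changes of 0.26 and 0.15 (adjusted p = 0.477 and 0.756).

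Between libraries of number 3 or 5 and number 1, genes of several of these lists differed. Of all genes, edgeR called 10.9%, with 6.32% higher and 4.59% lower. Of 15 immediate early genes 12 were higher and 1 lower, the latter being MYC, which is named after its values were seen, with a median log2 fold change of 0.65 beside -0.045 for all genes. The transcription factors EGR1, FOSL2, EGR3 and JUN had values of 0.99, 0.85, 1.19 and 0.65 (SE 0.09, 0.10, 0.14 and 0.08). Of 10 other feedback inhibitors 7 were higher, among them TNIP3 (2.01, SE 0.13) and TNFAIP3 (0.64, SE 0.07), which restrain NF-κB, and SOCS3 (1.16, SE 0.09), which restrains cytokine receptors. Of the kinases, edgeR called 0 of 7 MAP kinase kinases (1 at an unadjusted p under 0.05, 0 by DESeq2), and of 10 MAP kinases MAPK12 (-0.28) and MAPK14 (-0.24), both p38 kinases, were lower, of which DESeq2 called MAPK14 alone. Of 14 MAP3 kinases and adaptors 3 were higher, led by MAP3K8 (0.87, SE 0.08), the kinase that activates the ERK branch after LPS.

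Of the phosphatases outside the 9 members, DUSP7 and DUSP9 were lower in number 3 or 5, by -0.48 (SE 0.08, edgeR adjusted p = 3.26e-07) and -0.33 (SE 0.11, adjusted p = 0.0325), and DESeq2 called DUSP7 alone. Of 12 atypical dual-specificity phosphatases tested edgeR called 0 in this comparison, with 2 at an unadjusted p under 0.05 and 0 by DESeq2. In the test over all numbers edgeR called 2 of the 12, DUSP19 (adjusted p = 0.00111) and DUSP23 (0.0473), beside 9.61% of all genes. DESeq2 called DUSP19. Of 11 Sprouty, SPRED and other ERK feedback genes 2 were higher, PHLDA1 (1.17, SE 0.13) and SPRED2 (0.38, SE 0.08), and 2 lower, SPRY4 (-0.79, SE 0.11) and ETV4 (-0.44, SE 0.15), of which DESeq2 did not call ETV4. Monocyte markers differed as well, with 6 of 10 called higher, beside 6.32% of all genes, among them CD14 (1.43, SE 0.11) and CSF1R (0.58, SE 0.08). Their summed level ran from 827 to 923 CPM in number 1, from 954 to 1100 in number 2 and from 1025 to 1360 in number 3 or 5. The summed endothelial markers ran from 21.8 to 27.6, from 22.1 to 27.8 and from 25.5 to 34.8 CPM. EGFL7, which ran from 17.8 to 30.4 CPM, made up most of this sum. Of the 10 endothelial markers tested, 10 were higher in number 3 or 5 than in number 1 (median log2 fold change 0.76). However, 10 of the 14 listed were under 1 CPM in all 12 libraries. EdgeR called VWF higher and DESeq2 called no marker. The part of these markers in the differences of the phosphatases was not tested.

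**Figure D5:**
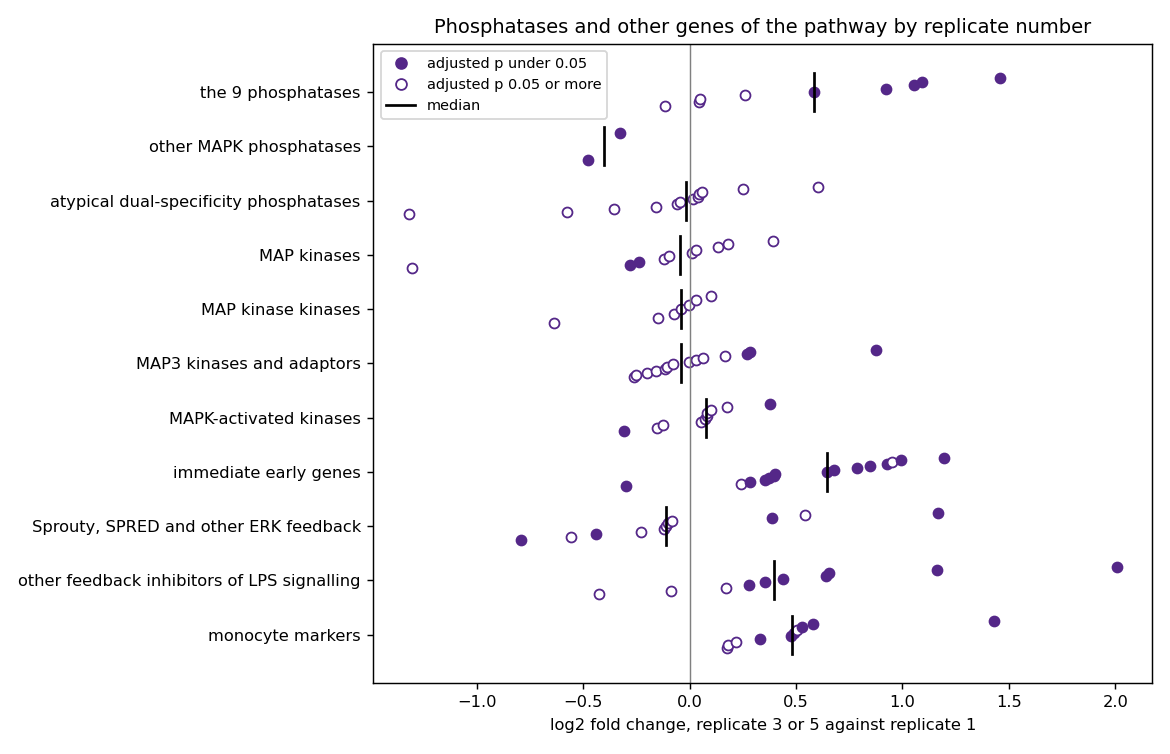
Log2 fold change of libraries numbered 3 or 5 against those numbered 1 (horizontal axis) for each gene of the lists except the endothelial markers. A vertical bar marks the median of each list shown, and filled points have an adjusted p under 0.05. The 9 phosphatases (median 0.58) and the immediate early genes (median 0.65) lie mostly to the right of 0, and the medians of the kinase lists lie near 0.

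Some limits apply to single members. Antisense or non-coding genes overlap exons of DUSP1 (AC022217.3), DUSP6 (AC024909.2), DUSP8 (KRTAP5-AS1) and DUSP16 (AC007619.1) on the opposite strand, and since the counting is not described, reads of the overlapping parts cannot be told apart without strand. GENCODE 29 also names 3 processed pseudogenes of DUSP8 and 2 of DUSP5, with which reads may be shared.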

How the data were processed

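RNA from 12 THP1 libraries in 4 groups was sequenced by a service company on an Illumina instrument with paired ends. The values deposited are whole-number counts of reads for each gene symbol, not normalized; the study filtered the reads, and per the labels they were mapped to hg38 by HISAT2. The counting program and the annotation are not given in the sources used here. A further 4 columns of the table match no described sample and were not used. Groups and replicate numbers came from the sample labels.

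Counts were tested with edgeR 4.0.16 (quasi-likelihood F test, TMM normalization, Benjamini-Hochberg adjustment over the 25873 genes with at least 10 counts in total) in R 4.3.3. The model held the 12 libraries with the group as its term. Genes with an adjusted p under 0.05 were called, with no minimum fold change. The standard error is the size of the log2 fold change over the root of F, and intervals are 1.96 standard errors on either side. Differences between replicate numbers came from a model with group and number. CPM use TMM library sizes, FPKM divide them by the exon length of GENCODE 29, and correlations use log2 CPM with a prior count of 2. Tests were checked on simulated data. DESeq2 1.42.0 was the second tool. The alternatives were its size factors in edgeR, 3 other filters on low counts, only the libraries compared, a replicate block in 2 forms and each library left out in turn.

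The 9 members, the lists and the tests were chosen with earlier results of these data known. All members are named. Of each list, up to 4 genes with the smallest p in the comparison described may be given values. For members with a mean of at least 5 CPM, the 3 genes with the highest correlation are named, for some members as measured and for others with group means subtracted. For DUSP1, 1 of the 3 is not reported here. Promoter windows on chromosome 8 were not used. Figures were made with matplotlib 3.10.9.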

Additional observations from a re-analysis of the deposited data

Results flagged for a closer look

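DUSP10 in EGCG-treated senECs replicate 2 stood apart from the other co-culture libraries. It measured 17.85 CPM, and the other 8 ran from 12.6 to 15.2 CPM. The gap to the nearest library was 0.502 of the range of the 9, above Dixon's limit of 0.493 at the 95% level. Chance alone passes this limit in about 1 of 20 sets, and 9 members were examined.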

How the results depend on the processing

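DUSP3 kept its direction in co-culture against mono-culture under all 8 alternatives and with each of the 12 libraries left out, with a log2 fold change from 0.53 to 0.69, and for the mean of the co-cultures it also kept its call (adjusted p at most 0.0123). The number of members called changed as follows. For senECs against mono-culture it was 1, and 2 (DUSP1 and DUSP3) with all genes that had a count, 0 with only the libraries compared, and from 0 to 1 with a library left out. For control ECs against mono-culture it was 1, and from 0 to 1 with a library left out. It was 2 in place of 1 for EGCG-treated senECs and for any co-culture against mono-culture with all genes that had a count (DUSP1: adjusted p = 0.0411 and 0.00862). With a library left out, from 4 to 5 members differed by number and from 3 to 4 and from 5 to 6 members were called for number 2 and number 3 or 5 against 1.

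The labels do not tie the numbers to a shared culture or day, and the numbers were not taken to pair the libraries, since the correlation of the deviations from the group means was over 0.1 in 10 of 14 same-numbered pairs (0.0351 to 0.472) and not in all. Of the 12 libraries 9 correlated best with their own number. With a replicate block, 2 members (DUSP1 and DUSP3) were called for senECs and for any co-culture against mono-culture. With numbers 3 and 5 joined in the block, 2 were called for senECs, EGCG-treated senECs and any co-culture against mono-culture, and 1 (DUSP6, 0.35, adjusted p = 0.0466) for senECs against control ECs.

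Signs turned in values that were not called. For any co-culture against mono-culture, DUSP6 was -0.0065 with at least 10 counts in every library, -0.037 with the replicate block and -0.022 with the joined block, and DUSP16 was -0.015 with the block. With a library left out, this comparison ran from -0.12 to 0.049 for DUSP2, -0.19 to 0.21 for DUSP6, -0.30 to 0.18 for DUSP8, -0.028 to 0.088 for DUSP10 and -0.084 to 0.27 for DUSP16. DUSP3 ran from -0.035 to 0.018 for senECs against control ECs. DUSP1 ran from -0.72 to 0.20 for EGCG-treated against untreated senECs and from -0.27 to 0.63 against control ECs. For number 3 or 5 against 1, DUSP5 ran from -0.21 to 0.011 and DUSP10 from -0.057 to 0.097. Over all members, 15 of 612 values turned sign under the alternatives and 97 of 972 with a library left out.

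Counts over all genes depended on the setting. For control ECs, senECs, EGCG-treated senECs and any co-culture against mono-culture, 37, 80, 55 and 187 genes were called, beside 120, 347, 230 and 436 by DESeq2, 223, 588, 377 and 582 with all genes that had a count, 469, 709, 424 and 824 with the block and 400, 1407, 782 and 1243 with the joined block. With only the libraries compared, senECs gave 20 genes and EGCG-treated senECs 35, and with at least 10 counts in every library the latter gave 36. With a library left out, these 4 counts ran from 11 to 44, 19 to 255, 12 to 100 and 37 to 244, and number 2 against 1 (1263) and number 3 or 5 against 1 (2822) ran from 636 to 1841 and from 1500 to 3601. Among the co-cultures, senECs against control ECs, EGCG-treated against untreated senECs and EGCG-treated senECs against control ECs had 0 genes called, beside 114, 14 and 43 with all genes that had a count, 153, 13 and 34 with the block and 268, 1 and 60 with the joined block. The causes were not tested. With at least 10 counts in every library and with edgeR's own filter, 1568 and 1540 genes differed by number, in place of 2486.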
